A study of Mus musculus with 22 samples.

Results

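The 8 fibroblast growth factor (FGF) genes Fgf3, Fgf4, Fgf5, Fgf8, Fgf9, Fgf10, Fgf15 and Fgf17 were followed through mouse embryoid body development. They were taken by symbol from the deposited gene tables, which hold 19721 genes in at least 1 library, and all 8 passed the filter on low counts. The libraries came from J1, a mouse embryonic stem (ES) cell line, and from embryoid bodies grown from it, floating clumps whose cells turn into ectoderm, mesoderm and endoderm. There were 22 libraries in all. The ES group (2 libraries) had no treatment. Embryoid bodies were taken at D4, D9, D12, D18 and D28, where the number is the day as read from the sample titles. At each day 2 libraries had 0.1% dimethyl sulfoxide (DMSO), 1 had 10 nM and 1 had 100 nM of tetrabromobisphenol A (TBBPA), a brominated flame retardant. No vehicle is stated for the TBBPA libraries. The labels do not tie replicates to separate cultures, so p-values measure the spread between these libraries, which may be technical.

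Most FGFs are secreted proteins that bind heparan sulphate and receptor tyrosine kinases (FGFR1 to FGFR4). These receptors signal mainly through the ERK MAP kinases and switch on their own inhibitors, such as the Sprouty proteins and the phosphatase DUSP6. In ES cells the ligand FGF4 is the signal that lets cells leave self-renewal, and Fgf5 marks the primed epiblast that follows. Later in the embryo, FGF8, FGF17 and FGF15 are made at signalling centres of the neural tube, FGF3 in the hindbrain and ear region, and FGF10 and FGF9 in mesenchyme, epithelium and gonad.

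Total counts were 18158583 to 18998141 per library. The ES pair stood apart in its spread, with a mean chi-square per gene between its libraries of 22.5, against 1.63 to 3.38 in the 5 DMSO pairs, where sampling alone would give about 1. The ES libraries carried the ES cell markers at a sum of 8640 and 8140 CPM (counts scaled by library size), which fell to 788 and 791 CPM in DMSO at D28. The summed endoderm and yolk sac markers were 6.02 and 6.38 CPM in ES cells and 1090 and 1130 CPM in DMSO at D9. Levels are given in CPM for comparing libraries, and in FPKM, which also divides by gene length, for comparing genes. Changes are log2 values ± SE, and a gene is said to rise or fall where its Benjamini-Hochberg adjusted p in edgeR was under 0.05. The control fit pools the spread of each gene over all control pairs. SE and adjusted p from ES to D4 thus rest largely on the closer DMSO pairs and may understate the ES spread. The ES pair also enters the spread used for the DMSO steps and for TBBPA at single days. There SE and adjusted p may be overstated, so a missing call does not show that a gene was unchanged. All 8 ligands varied over the control course of ES cells and 5 DMSO days, where 95.0% of all 16203 genes tested also did, so that share sets none of them apart.

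Among the 8 ligands, the one in the lead changed along the course. Fgf4 made up 93.1 and 92.9% of the 8 ligands' summed FPKM in the 2 ES libraries. At D4 it shared the lead with Fgf5, at 40.4 and 37.8% for Fgf4 and 37.3 and 39.7% for Fgf5 in DMSO. From D9 to D18 the lead lay with Fgf15, at 46.1 and 45.6% at D9, 50.7 and 50.1% at D12 and 51.9 and 53.1% at D18 in DMSO. At D28 Fgf4 led the 8 again, at 42.2 and 44.3% in DMSO, in a sum that was by then small. Fgf21, a secreted ligand outside the 8, was higher there, at 5.77 and 6.89 FPKM beside 5.05 and 5.35 FPKM for Fgf4. The summed FPKM was 143 and 117 in ES cells, 139 and 138 at D4, 69.5 and 68.2 at D9, 49.1 and 49.0 at D12, 33.1 and 31.6 at D18, and 12 and 12.1 at D28. Counts from whole aggregates cannot tell fewer cells that make a ligand from less RNA per cell. The gene length listed for Fgf3 varied between libraries from 1591 to 2453 bases, which moves its FPKM but not its counts, while that of Fgf4, Fgf10 and Fgf15 was constant.

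**Figure D1:**
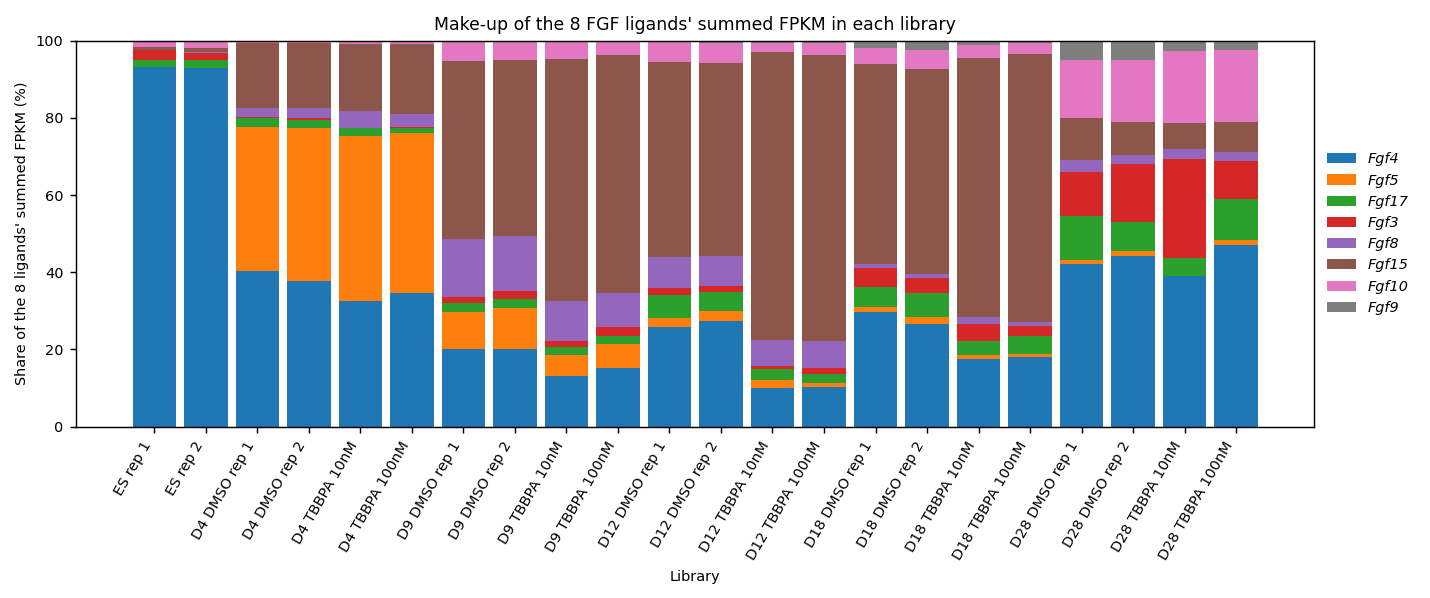
Each bar is 1 of the 22 libraries, and its segments are the shares (%) of the 8 ligands in their summed FPKM. Fgf4 fills 93.1 and 92.9% of the ES bars, Fgf5 joins it at D4, and Fgf15 holds 74.5 and 74.3% in the 2 TBBPA libraries of D12 against 50.7 and 50.1% in DMSO.

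The ligands of the pluripotent and epiblast stages come first. Fgf4 (gene ID 14175) is the FGF that ES cells make themselves. Its level was 461 and 377 CPM in the ES libraries and 191 and 176 CPM in DMSO at D4. It was 42.8 and 42.1 CPM at D9 and 37.1 and 39.2 CPM at D12. It then reached 27.7 and 23.9 CPM at D18 and 13.95 and 14.96 CPM at D28. The 6 control groups did not overlap and ran in the order of time, with 29.0-fold between the first and the last. Fgf4 fell from ES to D4 (-1.19 ± 0.09, adjusted p = 6.0e-08) and from D4 to D9 (-2.11 ± 0.10, adjusted p = 5.3e-10). It also fell from D12 to D18 (-0.56 ± 0.10) and from D18 to D28 (-0.84 ± 0.12), while D9 to D12 gave -0.14 ± 0.10 (adjusted p = 0.315).

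Fgf5 (gene ID 14176), the marker of the primed epiblast, was highest at D4 among the controls and near 0 in ES cells. It had no count in the first ES library and 1 count (0.0632 CPM) in the second. At D4 in DMSO it stood at 148 and 154 CPM, a ratio to ES of 4940 with a 95% counting interval of 887 to 195000, since the ES side rests on that 1 count. It was 17.2 and 18.5 CPM at D9, 2.76 and 3.10 CPM at D12, 1.16 and 1.30 CPM at D18 and 0.262 and 0.355 CPM at D28. No 2 control groups overlapped. The fall was -3.08 ± 0.09 from D4 to D9 and -2.60 ± 0.12 from D9 to D12, and it went on at -1.24 ± 0.20 and -2.0 ± 0.33 in the later steps, each past the threshold.

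Promoter sequence is shown for these 2 genes because together they held 77.7 and 77.5% of the ligands' summed FPKM at D4 in DMSO. From ES to D4 Fgf4 fell while Fgf5 rose. Each sequence is the 250 bases before the start, from RefSeq on GRCm38.p6, with letters in capitals where a searched motif lies.
Fgf4, chr7:144861136-144861385, plus strand: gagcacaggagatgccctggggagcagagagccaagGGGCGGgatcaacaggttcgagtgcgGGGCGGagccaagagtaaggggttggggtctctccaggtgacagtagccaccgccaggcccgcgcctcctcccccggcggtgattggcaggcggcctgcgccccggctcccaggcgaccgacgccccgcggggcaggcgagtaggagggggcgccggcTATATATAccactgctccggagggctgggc
Fgf5, chr5:98253934-98254183, plus strand: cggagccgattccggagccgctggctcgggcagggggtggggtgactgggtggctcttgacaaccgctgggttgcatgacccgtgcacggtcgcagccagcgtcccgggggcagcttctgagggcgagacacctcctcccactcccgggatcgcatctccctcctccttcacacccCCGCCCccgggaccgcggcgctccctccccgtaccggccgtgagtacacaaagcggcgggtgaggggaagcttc
The motifs searched, on both strands, were the TATA-box core TATAAA, the related TATATA, which reads the same on both strands, and the GC box GGGCGG. Fgf4 holds 2 overlapping TATATA matches, whose first bases lie at -30 and -28 from the start, and GC boxes at -214 and -188. Fgf5 holds 1 GC box, on the minus strand at -74, and neither TATA form. Of 32851 RefSeq promoters of the same length, 12.4% hold TATAAA, 5.25% TATATA and 32.7% GGGCGG. GC content is 71.2% for Fgf4 and 70.8% for Fgf5, beside a median of 52.4%. Of the other ligands, RefSeq entries were matched for Fgf3, Fgf9 and Fgf10, at 55.2, 44.8 and 61.2% GC. Of these 3, Fgf10 holds a GC box on the minus strand at -199, and Fgf3 and Fgf9 hold none of the motifs.

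Fgf17 (gene ID 14171), a ligand of the FGF8 subfamily, was low throughout, with 3.27-fold between its highest and lowest control group. Its control level was 5.21 and 4.80 CPM in ES cells, 6.26 and 5.05 CPM at D4 and 2.58 and 2.89 CPM at D9. It was then 4.38 and 3.84 CPM at D12, 2.51 and 3.17 CPM at D18 and 2.05 and 1.42 CPM at D28. ES and D4 overlapped, as did D18 and D9. Fgf17 fell from D4 to D9 (-1.05 ± 0.21, adjusted p = 5.7e-04). The other calls passed by little and were lost without single libraries. The rise from D9 to D12 (0.60 ± 0.21, adjusted p = 0.0436) had adjusted p of 0.209 and 0.107 without D9 DMSO library 1 or 2, and 0.219 and 0.0834 without D12 DMSO library 1 or 2. The fall from D18 to D28 (-0.71 ± 0.24, adjusted p = 0.0208) had 0.164 without D18 DMSO library 2 and 0.190 without D28 DMSO library 2.

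Fgf3 (gene ID 14174), a ligand of the hindbrain and ear region, lies next to Fgf4 on chromosome 7, where RefSeq lists Fgf3, Fgf4 and Fgf15 as consecutive coding genes. The 2 ES libraries differed, at 8.65 and 4.44 CPM. DMSO libraries held 0.783 and 1.083 CPM at D4, 2.75 and 3.38 CPM at D9 and 2.24 and 1.69 CPM at D12. They held 3.01 and 2.23 CPM at D18 and 2.55 and 2.68 CPM at D28. ES cells were thus highest and D4 lowest, and the range of D18 overlapped those of D9, D12 and D28. Fgf3 fell from ES to D4 (-2.80 ± 0.35, adjusted p = 1.0e-05) and rose from D4 to D9 (1.71 ± 0.38, adjusted p = 0.00165), and no later step passed. Neighbours on the chromosome did not share a course: from ES to D4, Fgf3 and Fgf4 fell while Fgf15 rose.

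Fgf8 and Fgf15, ligands of neural signalling centres, were highest at D9 among the controls, unlike Fgf17. Fgf8 (gene ID 14179) acts in the primitive streak and at the boundary of midbrain and hindbrain. It was 0.368 and 0.365 CPM in ES cells, 3.80 and 4.39 CPM at D4 and 11.4 and 10.9 CPM at D9. It was 4.02 and 3.94 CPM at D12, 0.351 and 0.397 CPM at D18 and 0.350 and 0.253 CPM at D28. D4 and D12 overlapped, and so did ES and D18. Fgf8 rose from ES to D4 (3.46 ± 0.27) and to D9 (1.44 ± 0.15), then fell to D12 (-1.47 ± 0.15) and D18 (-3.38 ± 0.25), with adjusted p of 7.7e-06 or less in each step.

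Fgf15 (gene ID 14170), the mouse counterpart of human FGF19, is known as a gut hormone and as a ligand of the embryonic neural tube. Its control level was 1.72 and 2.25 CPM in ES cells, 46.9 and 46.4 CPM at D4 and 58.5 and 56.6 CPM at D9. It was then 43.0 and 42.5 CPM at D12, 28.8 and 28.1 CPM at D18 and 2.15 and 1.72 CPM at D28. ES and D28 overlapped at the low end, and the 4 groups between them did not overlap. It rose by 4.55 ± 0.12 from ES to D4 and by 0.30 ± 0.08 to D9. It then fell by 0.42 ± 0.08 to D12, by 0.58 ± 0.08 to D18 and by 3.88 ± 0.12 to D28 on the log2 scale, and all 5 steps passed. The summed neural markers (Pax6, Sox1, Tubb3, Dcx, Map2, Elavl3, Neurog2 and Fabp7) were at 27.0 and 32.0 CPM at D4, below the 69.8 and 54.9 CPM of ES cells. Fgf15 was at 46.9 and 46.4 CPM at D4. Of the 8 markers 3 rose and 2 fell from ES to D4, beside 62.3% of all genes called. The marker sum fell from 863 and 867 CPM at D18 to 179 and 172 CPM at D28. In that step 8 of 8 markers fell, beside 53.0% of all genes called, and their part in the fall of Fgf15 was not tested.

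The ligands of mesenchyme and epithelium had courses of their own. Fgf10 (gene ID 14165), which drives limb and lung budding, was 12.98 and 12.3 CPM in ES cells, 4.14 and 4.18 CPM at D4 and 16.3 and 14.8 CPM at D9. It was 10.8 and 11.3 CPM at D12, 5.79 and 6.72 CPM at D18 and 7.51 and 8.31 CPM at D28. It fell to D4 (-1.61 ± 0.14), rose to D9 (1.90 ± 0.14), fell to D12 (-0.48 ± 0.12) and fell again to D18 (-0.81 ± 0.13). From D18 to D28 it gave 0.33 ± 0.13 (adjusted p = 0.0505). This step passed with library size alone in place of TMM scaling (0.0357), a stricter filter (0.0449) and the 4 libraries alone (0.0172). It also passed under limma on log2(FPKM + 1) (0.0296) and on log2(FPKM + 0.1) (0.0419). Without any 1 of the 4 libraries it gave 0.22 to 0.43, with no call. The D12 step had adjusted p = 0.00651, and 0.0708 without D9 DMSO library 1 or 0.0571 without D12 DMSO library 1. Fibroblast or feeder markers summed to 69.9 and 87.4 CPM in ES cells and 49.3 and 47.4 CPM at D4. Most of the ES sum was Ly6a, at 49.1 and 72.4 CPM, while Col1a1 was at 7.24 and 5.65 CPM, Lum was at 0 in ES library 1 and Twist2 in ES library 2. Of the 12 markers 4 rose and 1 fell from ES to D4, beside 62.3% of all genes called. Their part in the Fgf10 level was not tested.

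Fgf9 (gene ID 14180), a ligand of mesothelium, epithelium and gonad, was the member that appeared last. It was at 0 and 0.0608 CPM in ES cells and at 0 and 0.120 CPM at D4, both under the 3 counts (0.180 to 0.184 CPM in these libraries) taken as the limit of a count of 0. It reached 0.646 and 0.804 CPM at D9, 0.866 and 0.921 CPM at D12, 2.41 and 2.83 CPM at D18 and 2.30 and 2.22 CPM at D28. It rose from D4 to D9 (adjusted p = 7.9e-04) and from D12 to D18 (1.55 ± 0.31, adjusted p = 0.00128). At its D18 peak it was still 1.87 and 2.31% of the ligands' summed FPKM.

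**Figure D2:**
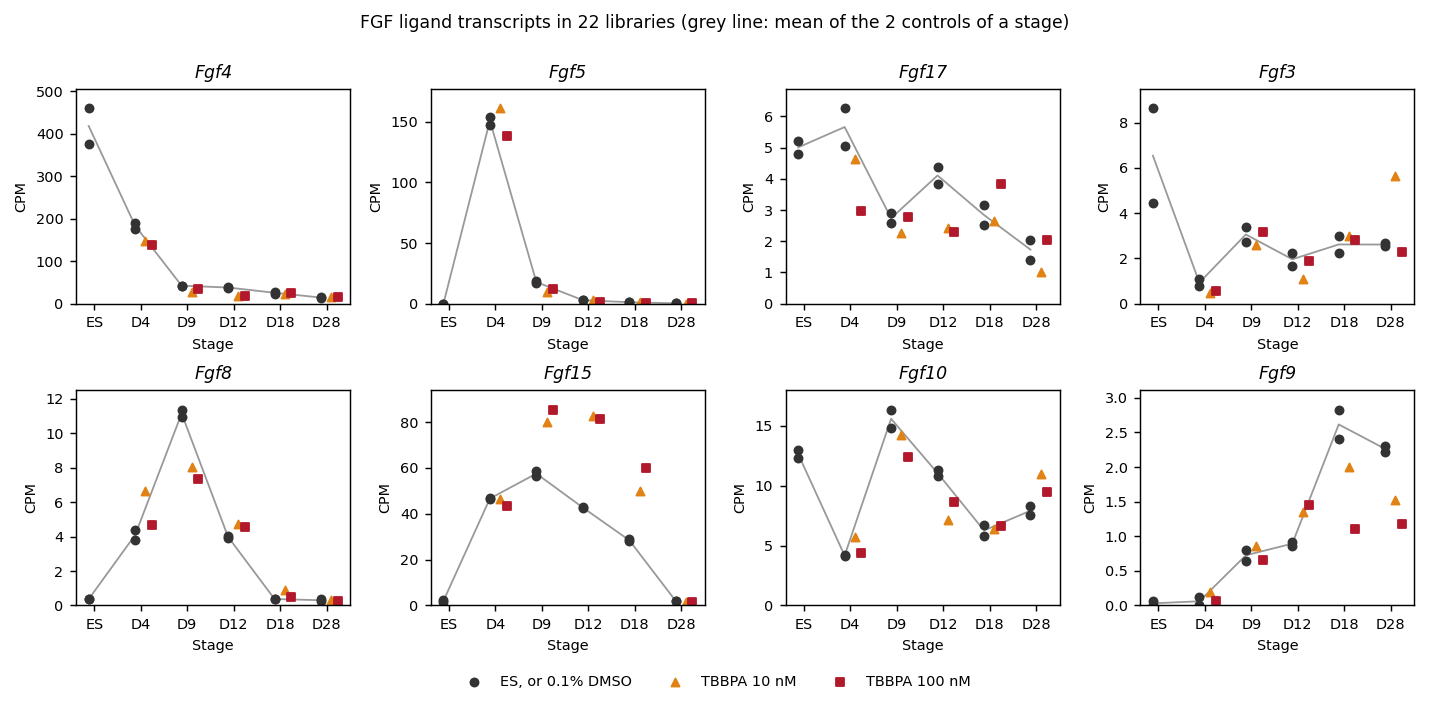
The 8 panels give CPM (linear axis from 0, a scale of its own for each gene) against stage for all 22 libraries, with circles for ES or DMSO, triangles for 10 nM and squares for 100 nM TBBPA, and a grey line through the mean of each control pair. Fgf4 is highest in ES cells, Fgf5 at D4, Fgf8, Fgf10 and Fgf15 at D9 and Fgf9 at D18 among the controls, and the TBBPA points of Fgf15 lie above the DMSO points at D9, D12 and D18.

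Counted by step, 6 of 8 ligands passed from ES to D4, where 62.3% of all genes tested did. From D4 to D9 8 of 8 passed beside 60.8%, and from D9 to D12 5 of 8 beside 33.1%. From D12 to D18 6 of 8 passed beside 37.7%, and from D18 to D28 4 of 8 beside 53.0%. The last step had falls alone among its calls (Fgf4, Fgf5, Fgf15 and Fgf17).

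Over the 22 libraries, each ligand was set beside the genes whose log2(CPM + 1) was most like its own by Pearson's r, among 14041 genes with a mean of at least 1. These r values describe libraries that share stages, so neighbouring points are not independent. Fgf4 was most like Apobec3 (0.995), Tdgf1, a Nodal coreceptor (0.993), and Dppa5a, an ES cell marker (0.991). Fgf5 was most like Vrtn (0.995), Pphln1 (0.984) and Enpp3 (0.983). For Fgf15 they were Ptbp2, a neural splicing regulator (0.979), the activin receptor Acvr2b (0.970) and Mapk11 (0.969). For Fgf8 they were the muscle enolase Eno3 (0.968), Obfc1 (0.965) and Slc23a1 (0.959), and for Fgf9 Ttc6 (0.976), Heyl (0.971) and Kctd12 (0.962). For Fgf17 they were Ephx2 (0.935), Dmrt1 (0.893) and Nphs1 (0.877), for Fgf10 Mfsd1 (0.910), Hykk (0.886) and Uaca (0.878), and for Fgf3 Ehhadh (0.90), Slc7a1 (0.892) and Npepps (0.891). Among the members themselves the most alike pair was Fgf4 and Fgf17 (0.804) and the most opposed was Fgf4 and Fgf9 (-0.890).

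From D4 to D9, where Fgf4 and Fgf5 fell, 6 of 6 tested receptor and co-receptor genes rose, beside 60.8% of all genes called. Their median change was 1.34, beside 0.01 over all genes. Fgfr3 went from 2.37 and 1.63 CPM to 25.2 and 27.4 CPM (3.72 ± 0.16), Klb, the co-receptor of FGF15 and FGF21, rose by 2.90 ± 0.22, and Fgfrl1, which lacks the kinase domain, by 1.16 ± 0.10. Fgfr4, the receptor that FGF15 favours, rose by 1.51 ± 0.19. Fgfr2 had risen earlier, from 4.72 and 1.88 CPM in ES cells to 38.3 and 38.0 CPM at D4 (3.53 ± 0.20). Fgfr1 was high throughout, at 126 to 143 CPM in ES cells and 235 to 240 CPM at D28 in the controls. Of the 6 genes of the receptor list 3 rose and 1 fell from ES to D4, beside 62.3% of all genes called. From D9 to D12 3 rose and 1 fell, beside 33.1%. From D12 to D18, where Fgf4 and Fgf5 also fell, 1 of 6 rose and none fell, beside 37.7%. From D18 to D28 4 of 6 rose and none fell, where 53.0% of all genes were called.

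Genes that FGF signalling is known to switch on were followed next. From ES to D4, where 62.3% of all genes were called, 9 of 11 feedback inhibitors rose and none fell, with a median of 1.80 beside 0.00 over all genes. Dusp6 went from 5.27 and 4.56 CPM to 87.5 and 85.4 CPM (4.13 ± 0.09). Spry1 rose by 2.43 ± 0.09, Il17rd by 1.58 ± 0.07 and Spry4 by 1.80 ± 0.14, while Spry2 gave -0.10 ± 0.08 (adjusted p = 0.300). Of the 8 ETS factors and positive targets 5 rose, 1 fell and 2 did not pass. The ETS factors parted at this step: Etv5 rose (0.55 ± 0.08) and Etv4 fell (-1.65 ± 0.10). In the same step 8 of 9 primed epiblast genes rose, led by Zic2 (3.02 ± 0.07), Pim2 (2.93 ± 0.07) and Pou3f1 (5.46 ± 0.13). Later Etv5 fell in every step, from 490 and 497 CPM at D4 to 36.1 and 36.8 CPM at D28, and Il17rd fell from 117 and 128 CPM to 27.0 and 25.3 CPM.

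**Figure D3:**
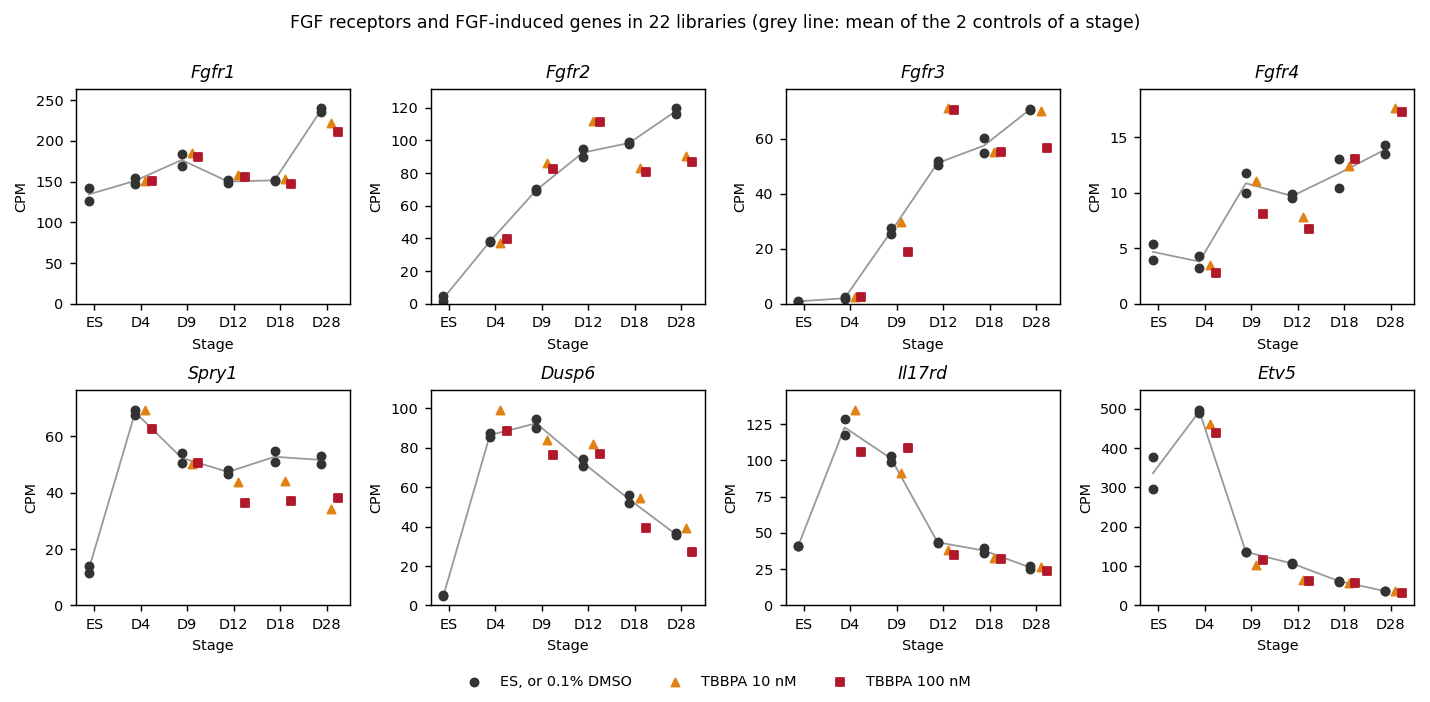
CPM (linear axis from 0) against stage for Fgfr1 to Fgfr4 and for Spry1, Dusp6, Il17rd and Etv5 in the 22 libraries, with the symbols and the grey control line as in the plot of the 8 ligands. Fgfr2 is up by D4 and Fgfr3 by D9, Dusp6 and Spry1 are up by D4, and Etv5 falls after D4, to 36.1 and 36.8 CPM in DMSO at D28.

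Genes of the boundary of midbrain and hindbrain, where Fgf8, Fgf15 and Fgf17 are made in the embryo, were tested in the same steps. From D4 to D9 7 of 10 rose and 1 fell, beside 60.8% of all genes called, while Fgf8 and Fgf15 rose and Fgf17 fell. Wnt1 went from 0 in both D4 libraries to 33.9 and 33.98 CPM. Lmx1b rose by 2.02 ± 0.12 and En1 by 5.13 ± 0.31, while Otx2, which is also a primed epiblast gene, fell, from 329 and 321 CPM to 159.5 and 165 CPM. From D18 to D28, where Fgf15 and Fgf17 fell, 8 of 10 fell and 1 rose, beside 53.0% called, led by Wnt1 (-2.88 ± 0.14), Pax2 (-1.94 ± 0.28) and Otx2 (-0.74 ± 0.12). Of the primitive streak and presomitic genes 8 of 13 tested rose and none fell from D4 to D9, a share near the 60.8% of all genes called, and T had the smallest p (4.32 ± 0.20). Of the other secreted ligands, 4 of 6 tested rose from D12 to D18, beside 37.7% of all genes called, and 5 of 6 from D18 to D28, beside 53.0%. In the last step Fgf21 went from 1.15 and 1.80 CPM to 4.85 and 5.93 CPM (1.86 ± 0.25), and Fgf1 rose by 1.31 ± 0.19 and Fgf18 by 0.64 ± 0.19. Fgf18 had come up earlier, from 0.482 and 0.541 CPM at D4 to 3.66 and 3.32 CPM at D9 in DMSO, beside 4.50 and 4.25 CPM at D28.

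TBBPA was compared with DMSO at each day by setting both doses of that day, as 2 samples, against the DMSO pair. At D4 0 of 8 ligands passed, where 0.458% of all 16383 genes tested did, and 1684 genes had an unadjusted p under 0.05. At D9 3 of 8 passed beside 2.34%, at D12 4 of 8 beside 21.1%, at D18 1 of 8 beside 10.5% and at D28 0 of 8 beside 7.09%, where 3428 genes had an unadjusted p under 0.05. DESeq2 also called 0 ligands at D4 and at D28. Fitted without the other days, 1 ligand passed at D4: Fgf4 was 191 and 176 CPM in DMSO against 147 and 138 CPM with TBBPA (-0.37 ± 0.10), with adjusted p = 0.107 in the fit of all days and 4.3e-05 in the 4 libraries alone.

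Fgf15 was higher with TBBPA at the 3 middle days. At D9 it was 80.2 CPM at 10 nM and 85.3 CPM at 100 nM, against 58.5 and 56.6 CPM in DMSO (0.52 ± 0.08, adjusted p = 5.5e-04). At D12 it was 82.7 and 81.3 CPM against 43.0 and 42.5 CPM (0.94 ± 0.08, adjusted p = 8.4e-08). At D18 it was 50.04 and 59.9 CPM against 28.8 and 28.1 CPM (0.95 ± 0.08, adjusted p = 4.5e-07). In each of these 3 days both TBBPA libraries lay above both DMSO libraries, and the TBBPA libraries of D12 lay within the range of those of D9 (80.2 to 85.3 CPM), while DMSO fell between these days. At D4 Fgf15 was 46.3 and 43.3 CPM against 46.9 and 46.4 CPM, and at D28 1.58 and 1.58 CPM against 2.15 and 1.72 CPM, with no call. The effect differed between the days (adjusted p = 1.7e-05). Averaged over the 5 days it was 0.56 ± 0.11 (adjusted p = 0.00219), with both TBBPA libraries above DMSO at 3 of 5 days. With each DMSO pair summed to 1 library, so that the close agreement within pairs does not count as replication, Fgf15 had adjusted p of 0.183 at D9, 0.00142 at D12, 0.00798 at D18 and 0.0492 between days.

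The neural markers were higher with TBBPA at the days when Fgf15 was. Their sum was 130 and 131 CPM in DMSO against 204 and 203 CPM with TBBPA at D9, 395 and 417 against 799 and 838 CPM at D12, and 863 and 867 against 1360 and 1330 CPM at D18. Of the 8 markers, 6 rose at D9, 8 at D12 and 7 at D18, beside 2.34, 21.1 and 10.5% of all genes called, none fell, and none was at 0 in a library of those days. At D28 the markers and Fgf15 went apart. The sum was 221 and 206 CPM with TBBPA against 179 and 172 CPM. Of the 8 markers 2 were higher, beside 7.09% of all genes called, while Fgf15 was lower in both TBBPA libraries with no call. The part of the neural markers in the higher Fgf15 was not tested. Of the 10 boundary genes 3 rose at D9, 6 at D12, 4 at D18 and 0 at D4 and D28, beside the same shares of all genes at D9 to D18, and none fell. At D9 these were Wnt1 (0.89 ± 0.11), Pax5 (0.83 ± 0.18) and Sp8 (0.88 ± 0.20). At D12 they were led by Otx2 (0.55 ± 0.10), Wnt1 (0.55 ± 0.10) and Lmx1b (0.50 ± 0.15), and at D18 by En2 (1.07 ± 0.20), Pax5 (1.24 ± 0.25) and Otx2 (0.44 ± 0.10). Fgfbp3, a secreted FGF carrier, rose at the same 3 days, by 0.58 ± 0.14, 1.05 ± 0.12 and 0.84 ± 0.12. With each DMSO pair summed, the D9 calls of these neural, boundary and carrier genes were lost, as was that of Fgf15. Fgf8, the ligand most tied to the boundary, did not pass at any day: it was 8.06 and 7.37 CPM against 11.4 and 10.9 CPM in DMSO at D9 (-0.53 ± 0.17, adjusted p = 0.130), and 0.901 and 0.504 against 0.351 and 0.397 CPM at D18 (0.90 ± 0.39, adjusted p = 0.202). Its D9 fall passed under limma on log2(FPKM + 1) (-0.48, adjusted p = 0.0436) and under edgeR on the 4 libraries alone (-0.53, adjusted p = 0.0462). limma on log2(FPKM + 0.1) put its D18 rise past the threshold (0.71, adjusted p = 0.0423).

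Fgf4 was lower with TBBPA at D12, at 18.9 CPM with 10 nM and 19.0 CPM with 100 nM against 37.1 and 39.2 CPM in DMSO (-1.01 ± 0.12, adjusted p = 4.5e-06). At D9 it was 28.03 and 35.3 CPM against 42.8 and 42.1 CPM (-0.42 ± 0.11, adjusted p = 0.0459). That smaller call was lost without D9 DMSO library 1 (adjusted p = 0.275), DMSO library 2 (0.245) or the 10 nM library (0.396). At D18 the groups overlapped, at 22.1 and 26.3 CPM against 27.7 and 23.9 CPM, and at D28 Fgf4 was 15.3 and 15.9 CPM against 13.95 and 14.96 CPM. The effect differed between days (adjusted p = 0.00188), and its mean over days was -0.37 ± 0.10 (adjusted p = 0.0114), with both TBBPA libraries below DMSO at 3 of 5 days. With each DMSO pair summed, adjusted p was 0.00294 at D12, 0.574 at D9, 0.188 between days and 0.0562 over days. Of the 10 ES cell markers 9 fell and 1 rose at D12, beside 21.1% of all genes called, and their sum was 1000 and 991 CPM with TBBPA against 1360 and 1310 CPM. At D9 0 of the 10 passed, beside 2.34% of all genes, and at D4, where Fgf4 did not pass, 3 fell, beside 0.458%. Their part in the lower Fgf4 was not tested. Etv5 fell at D12 as well, to 63.8 and 61.4 CPM from 106 and 107 CPM (-0.77 ± 0.09).

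**Figure D4:**
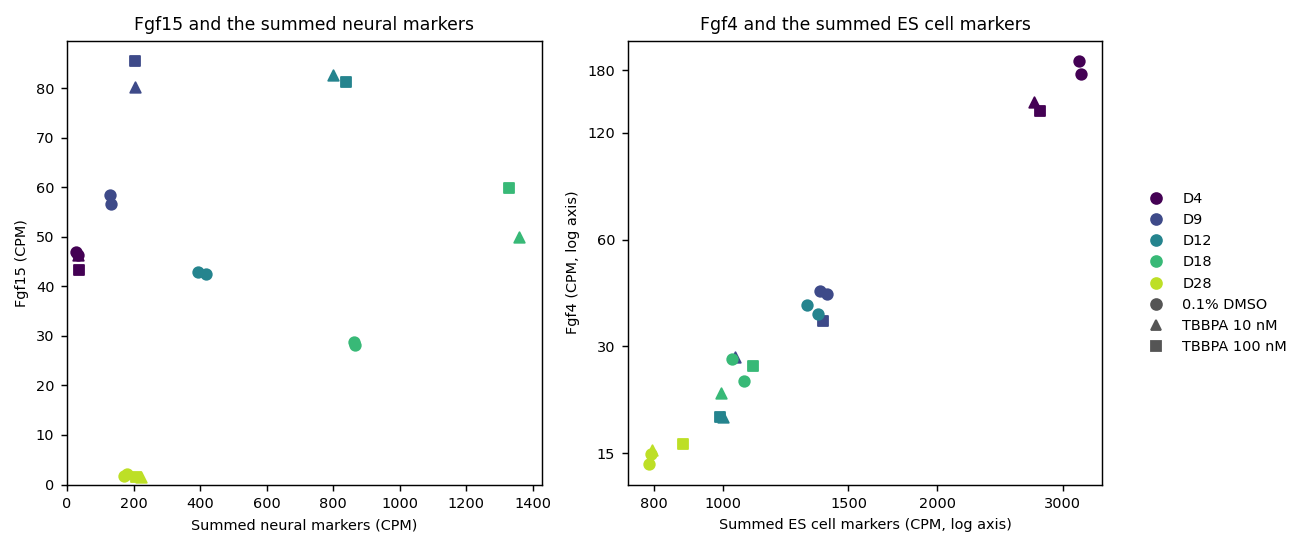
Left: Fgf15 (CPM) against the summed neural markers (CPM), both on linear axes. Right: Fgf4 against the summed ES cell markers, both on log axes. Each point is 1 of 20 embryoid body libraries, coloured by day, with circles for DMSO, triangles for 10 nM and squares for 100 nM TBBPA; at D12 and D18 the TBBPA points lie above and to the right of DMSO on the left, and at D12 below and to the left on the right.

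Fgf5 was lower with TBBPA at D9, at 9.81 and 12.4 CPM against 17.2 and 18.5 CPM in DMSO (-0.69 ± 0.16, adjusted p = 0.0212). It was lost without D9 DMSO library 1 (adjusted p = 0.120), DMSO library 2 (0.223) or the 10 nM library (0.218), and with the pairs summed (0.581). At D12 the doses parted, with 3.14 CPM at 10 nM just above DMSO (2.76 and 3.10 CPM) and 1.47 CPM at 100 nM below it, and without the 10 nM library Fgf5 passed (-0.99, adjusted p = 0.0395). At D4, its peak, it was 161 and 138 CPM against 148 and 154 CPM. Its mean over days was -0.30 ± 0.11 (adjusted p = 0.0601), which passed without D4 DMSO library 1 (0.0304) or 2 (0.0487), the D4 10 nM library (0.0130) or the D12 10 nM library (0.0400). The mean also passed under DESeq2 (0.0242), limma on log2(FPKM + 1) (0.0475) and on log2(FPKM + 0.1) (0.0362), and with 100 nM alone (0.0153). It did not pass with 10 nM alone (-0.21, adjusted p = 0.334) or with the pairs summed (-0.34, adjusted p = 0.15).

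Fgf10 and Fgf17 were lower with TBBPA at D12. Fgf10 was 7.11 and 8.59 CPM against 10.8 and 11.3 CPM (-0.49 ± 0.14, adjusted p = 0.0174). It was lost without D12 DMSO library 1 (0.0663) or 2 (0.109), without the 10 nM library (0.188) and with the pairs summed (0.188). At D28 it pointed the other way, at 11 and 9.45 CPM against 7.51 and 8.31 CPM (0.37 ± 0.14, adjusted p = 0.129), and the test between days gave adjusted p = 0.0285. That call was lost with the pairs summed (0.635), under limma on log2(FPKM + 0.1) (0.0710) and without any 1 of 9 of the 20 embryoid body libraries (up to 0.105). The fibroblast or feeder markers summed to 1710 and 1440 CPM against 2290 and 2200 CPM at D12. There 5 of 12 fell and none rose, beside 21.1% of all genes called. At D28 they summed to 9580 and 10300 CPM against 14600 and 15200 CPM, where 4 fell and 1 rose, beside 7.09%. At D18, where Fgf10 did not pass, 8 of the 12 fell, beside 10.5%. Their part in the Fgf10 level was not tested. Fgf17 was 2.44 and 2.29 CPM against 4.38 and 3.84 CPM at D12 (-0.79 ± 0.27, adjusted p = 0.0419). Leaving out any 1 of the 4 D12 libraries ended that call, with adjusted p of 0.202 and 0.0973 without DMSO library 1 or 2, 0.129 without 10 nM and 0.191 without 100 nM, and the pairs summed gave 0.231.

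Fgf3 and Fgf9 passed at no day. For Fgf3, 1 library stood apart: at D28 it was 5.65 CPM at 10 nM against 2.30 CPM at 100 nM and 2.55 and 2.68 CPM in DMSO (0.60 ± 0.35 for both doses, adjusted p = 0.354). Fgf9 was lower in both TBBPA libraries at D18 (2.002 and 1.11 against 2.41 and 2.83 CPM, adjusted p = 0.146) and at D28 (1.53 and 1.18 against 2.30 and 2.22 CPM, adjusted p = 0.190). These changes were -0.75 ± 0.31 and -0.74 ± 0.32.

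**Figure D5:**
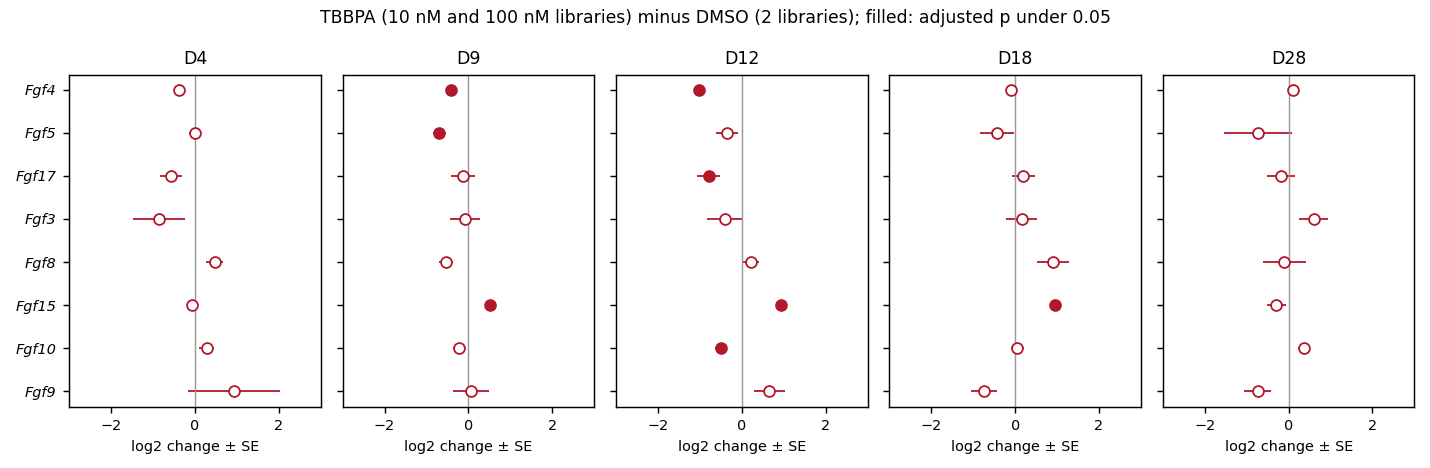
Each panel is 1 day, and each point the log2 change of a ligand with TBBPA (10 nM and 100 nM libraries) against the DMSO pair, with its SE as a bar and filled where adjusted p was under 0.05. Fgf15 is filled to the right at D9, D12 and D18, Fgf4 to the left at D9 and D12, and the wide bars of Fgf9 at D4 and Fgf5 at D28 belong to libraries of few counts.

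Averaged over days, 2 of 8 ligands (Fgf15 and Fgf4) passed, where 22.2% of all 15885 genes tested did, and the effect differed between days for 4 of 8 (Fgf4, Fgf8, Fgf10 and Fgf15) beside 10.4%. With each DMSO pair summed, 1 of 8 (Fgf15) passed between days. Between the doses, 0 of 8 ligands and 0% of 16059 genes passed in edgeR, with 1025 genes at an unadjusted p under 0.05 and 7 genes called by DESeq2. The ligands' differences of 100 nM minus 10 nM over days ran from -0.40 ± 0.29 (Fgf9) to 0.19 ± 0.21 (Fgf17), and that of Fgf15 was 0.06 ± 0.16. Each dose is 1 library a day, so a dose difference at a single day has no replicate.

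With TBBPA 2 of 6 receptor genes passed at D12, beside 21.1% of all genes, and 1 of 6 at D28, beside 7.09%. At D12 Fgfr3 rose (0.47 ± 0.14) and Klb fell (-0.79 ± 0.17), at D28 Fgfr2 fell (-0.41 ± 0.10), and the other tests of the 6 receptor genes at single days did not pass. Of 11 feedback inhibitors 1 passed at D4, beside 0.458% of all genes, 0 at D9, 2 at D12 and 2 at D18, beside 21.1 and 10.5%, and 1 at D28, beside 7.09%. Spry1 fell at D18 (-0.38 ± 0.10) and D28 (-0.52 ± 0.10), and Spred3 rose at D4 (0.57 ± 0.11), D12 (0.45 ± 0.11) and D18 (0.33 ± 0.11). Dusp5 fell at D12, at 10.95 and 9.372 CPM with TBBPA against 13.85 and 13.04 CPM in DMSO. Over days 1 of the 11 rose and 2 fell (Spry1, Spred3 and Spry4 were called), beside 22.2% of all genes. Dusp6, Spry2, Il17rd and Etv4 passed at no day, with Dusp6 between -0.21 ± 0.13 (D9) and 0.13 ± 0.13 (D12). Over days the boundary genes had 8 of 10 higher and none lower, beside 22.2% of all genes called, with a median of 0.49 beside 0.01 over all genes, led by Pax5 (0.77 ± 0.12), Sp8 (0.62 ± 0.11) and Wnt1 (0.47 ± 0.10). Among the other secreted ligands Fgf1 fell over days (-0.73 ± 0.15, adjusted p = 0.00197), with 4 others tested and not called.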

How the data were processed

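Messenger RNA was measured in 22 libraries of mouse J1 ES cells and embryoid bodies, grouped by the treatment labels and titles. The deposited expected counts are estimated counts of reads per gene from the authors, and the deposited FPKM values stand beside them, per the file headers. HISAT, Bowtie2 and GRCm38.p5 are named in the submitters' processing notes, and the counting tool and strand setting are not given in the sources used here. A gene missing from a library's table was taken as 0. The members and lists were chosen with earlier results of these data known.

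Expected counts were rounded and tested with edgeR 4.0.16 (R 4.3.3): TMM, filterByExpr, robust quasi-likelihood F tests and Benjamini-Hochberg adjustment across every gene in a fit (threshold 0.05). Control steps used 1 fit of the 12 control libraries, TBBPA at each day and between days 1 fit of all 22 with 11 groups, and means over days and doses fits of the 20 embryoid body libraries with day as a factor. SE was taken as the log2 change over the root of its F value. The fits were tried on simulated counts with the same spread for every gene and library, and with changes set in genes of higher counts alone. That trial does not cover the wider ES spread or ligands of few counts. Intervals and limits cover counting error only. Alternatives were DESeq2 1.42.0, other scalings and filters, limma 3.58.1 on log2(FPKM + 1) and log2(FPKM + 0.1), the compared libraries alone, the replicate number as a block, single doses, summed DMSO pairs, and each library left out. Named were the 8 members, for each of 10 pathway lists the 3 called genes of smallest p, FGF receptors and main feedback genes, marker list members, and the 3 genes most like each member.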

Additional observations from a re-analysis of the deposited data

Results flagged for a closer look

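The test of whether the TBBPA effect differed between the 5 days passed for 4 of the 8 ligands, and for 1 of them (Fgf15) with each DMSO pair summed. For Fgf15 (adjusted p = 1.7e-05) the log2 change was 0.52 at D9, 0.94 at D12 and 0.95 at D18, beside -0.06 at D4 and -0.29 at D28. For Fgf4 (adjusted p = 0.00188) it was -1.01 at D12 and 0.11 at D28. For Fgf10 (adjusted p = 0.0285) it was -0.49 at D12 and 0.37 at D28. For Fgf8 (adjusted p = 0.0408) it was -0.53 at D9 and 0.90 at D18, and neither day passed by itself. The calls for Fgf8 and Fgf10 were lost without 16 and 9 of the 20 embryoid body libraries, left out 1 at a time, with adjusted p of up to 0.133 and 0.105. With each DMSO pair summed, adjusted p was 0.0492 for Fgf15, 0.188 for Fgf4, 0.635 for Fgf10 and 0.687 for Fgf8. limma on log2(FPKM + 0.1) gave 0.0710 for Fgf10 and 0.0623 for Fgf8, and DESeq2 gave 0.147 for Fgf8.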

How the results depend on the processing

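Across the alternatives, 1922 values of single ligands were recomputed. Of these, 1823 kept their direction and side of the threshold or were past it in neither fit, 75 lost the call, 24 gained one and 0 reversed. In 66 the sign changed with neither fit past the threshold. The called control steps of Fgf15, Fgf4 and Fgf5 kept their calls under DESeq2, which lost 5 other calls: Fgf10 (adjusted p = 0.0533) and Fgf17 (0.138) from D9 to D12, Fgf17 from D18 to D28 (0.0774) and with TBBPA at D12 (0.0609), and Fgf8 between days (0.147). DESeq2 also gained the call of Fgf5 with TBBPA over days (0.0242). Fgf3, Fgf8, Fgf9 and Fgf17 are at few counts in many libraries, which limits what their tests can show. The values of pathway and marker genes other than the 8 ligands are given from the main edgeR fits alone. They were not compared gene by gene across the alternatives. With each DMSO pair summed, their TBBPA calls at D4 and D9 were lost. Of the 24 genes given as most like a ligand, 14 were also among the 3 most like it by log2(FPKM + 1).

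From D9 to D12 DESeq2 called 3 ligands. The 4 libraries of a comparison alone called 8056 genes from D9 to D12, and with TBBPA 663 at D4 (with 1 ligand), 576 at D9 and 5223 at D12. With TBBPA at D4 DESeq2 called 155 genes. limma on log2(FPKM + 0.1) called 142 genes at D4, 193 with 1 ligand at D9, 1043 with 2 ligands at D18 and 639 at D28, and 2 ligands between days. The 10 nM libraries alone gave 4 genes at D4, 211 at D9, 1874 at D12, 940 at D18, 431 at D28 and 2145 over days. With each DMSO pair summed, calls were 0 genes at D4, 0 genes and 0 ligands at D9, 781 genes and 2 ligands at D12, 172 genes at D18, 6 at D28, 21 with 1 ligand between days and 1188 with 1 ligand over days. Between the doses DESeq2 called 7 genes and limma on log2(FPKM + 1) called 2. The cause was not tested in any of these.

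Without 1 library at a time, the calls ran from 3236 to 3426 genes and 3 to 4 ligands from D9 to D12. With TBBPA they ran from 1 to 29 genes at D4, 93 to 287 genes with 1 to 3 ligands at D9, 1718 to 2172 genes with 2 to 3 ligands at D12, 735 to 1342 genes at D18 and 231 to 1303 genes at D28. Between days they ran from 1015 to 1879 genes with 2 to 4 ligands, and between doses from 0 to 5 genes.

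Libraries of the same replicate number deviated together only weakly. The correlation of same-numbered deviations ran from -0.0234 to 0.123 over 15 pairs of control groups, with 1 over 0.1. A low correlation cannot exclude that same-numbered libraries shared a culture or a run. With the replicate number as a block in the control fit, the rise of Fgf17 from D9 to D12 had adjusted p = 0.0513, and no other ligand's call changed.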

Other observations

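Most secreted FGFs are held at the cell surface by heparan sulphate, and secreted carriers also bind FGFs. From ES to D4 11 of the 16 genes for heparan sulphate enzymes and carriers rose and 2 fell, beside 62.3% of all genes called in either direction. Fgfbp1, a secreted FGF carrier, went from 1.104 and 0.365 CPM to 36.4 and 36.3 CPM (log2 change 5.62 ± 0.22, SE). Hs6st2, a heparan sulphate sulphotransferase, rose by 4.40 ± 0.28 and Ext1, which builds the chain, by 1.09 ± 0.07. With TBBPA at D12 2 of the 16 rose and 4 fell, beside 21.1% of all genes called. The carrier Fgfbp3 rose by 1.05 ± 0.12, while Fgfbp1 (-0.76 ± 0.19) and the surface proteoglycans Sdc4 (-0.50 ± 0.10) and Gpc3 (-0.46 ± 0.11) were among those that fell. Of the 9 receptor adaptors 2 fell at D12 with TBBPA, Gab1 (-0.51 ± 0.05) and Frs2 (-0.30 ± 0.06).

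The 4 FGF homologous factors stay inside the cell and bind sodium channels of excitable cells. From D12 to D18 3 of the 4 rose, beside 37.7% of all genes called, and the largest log2 change was that of Fgf14 (2.24 ± 0.32). With TBBPA Fgf12 passed at D18, where it was 4.91 and 4.61 CPM against 2.28 and 2.35 CPM in DMSO (1.05 ± 0.26, edgeR adjusted p = 0.0105), and the other 3 factors passed at no single day.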
